A study of Homo sapiens with 4 samples.

Results

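The regions described here are the sites of the HNF4A ChIP-seq tables whose closest gene belongs to the machinery that attaches ubiquitin to proteins or removes it. They were chosen by name alone, from the prefixes USP, OTUD, UBA, UBE2, UBE3, UBE4, RNF, TRIM, FBXO, FBXL, FBXW and CUL followed by the number or letter of the gene. In all, 91 of 5326 regions (1.71%) carried such a name, spread over 69 genes and 11 prefixes, with no region for UBE4. Of the 69 names, 68 matched the RefSeq gene table, as 66 protein-coding genes, 1 transcribed pseudogene (RNF138P1) and 1 long non-coding RNA (RNF217-AS1), and UBA6-AS1 was not matched. A region was given to a gene because that gene was the closest one, so no region is shown to act on the gene whose name it bears.

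Ubiquitin is a small protein that is joined to other proteins in a relay. An E1 enzyme activates it, an E2 enzyme carries it, and an E3 ligase chooses the target, either with a RING domain that brings the E2 to the target or with a HECT domain that takes ubiquitin over first. Cullins are the scaffolds of many RING ligases, F-box proteins are their exchangeable target receptors, TRIM proteins are a RING family with several members in innate immunity, and deubiquitinases of the USP and OTUD families cut ubiquitin off again. HNF4A is a nuclear receptor that governs many genes of the hepatocyte.

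Chromatin came from HCCLM3, a human hepatocellular carcinoma line, and the design asked which genes HNF4A occupies under different glucose supply. There were 4 libraries, 1 per group: HNF4A antibody at high glucose, HNF4A antibody at low glucose, IgG at high glucose and IgG at low glucose. The labels give all 4 the same text: stable overexpression lines made with a lentiviral vector, and culture in high glucose medium. They do not say which cDNA was overexpressed, in which library, or what the low glucose concentration was. An IgG library shows where chromatin is recovered without the specific antibody. ChIP-seq does not measure RNA, so cell type markers were not checked.

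The deposited levels gave back whole reads for 100% of values, within 0.01 of a whole number. Over all 5326 regions the libraries held 402237 HNF4A reads and 249744 IgG reads at high glucose, and 295460 HNF4A reads and 198683 IgG reads at low glucose. The 91 regions held 6106 HNF4A reads and 3575 IgG reads at high glucose, and 4344 HNF4A reads and 2573 IgG reads at low glucose. A single region held a median of 56 HNF4A reads (14 to 265) and 32 IgG reads (1 to 183) at high glucose, and 38 HNF4A reads (9 to 175) and 21 IgG reads (1 to 108) at low glucose. Regions were 387 to 4723 bp wide, with a median of 1083 bp against 1030 bp over all regions.

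With 1 library per group there is no replicate check and no test between conditions. Each log2 ratio below is taken after the authors' scaling and has an exact 95% Clopper-Pearson interval, which covers counting error only. PCR duplicates are not independent molecules, so duplicates among the reads would make these intervals too narrow. A difference outside such an interval is a difference between libraries. "2-fold" means a log2 ratio of at least 1 in size, and a number in brackets after a gene, as in TRIM2 (2), numbers that gene's regions in order of position on the chromosome. Coordinates are hg19 with starts counted from 1.

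HNF4A reads exceeded IgG reads, after scaling, at 75 of the 91 regions at high glucose (82.4%, against 84.2% of all regions) and at 84 at low glucose (92.3%, against 91.5%). The median log2 ratio of HNF4A over IgG was 0.69 at high and 0.79 at low glucose, compared with 0.79 and 0.94 over all regions. At high glucose 30 regions were at least 2-fold higher with HNF4A than with IgG (33.0%, against 41.6% of all regions) and 1 was at least 2-fold lower (1.05% of all). At low glucose 39 were at least 2-fold higher (42.9%, against 46.8%) and 0 were at least 2-fold lower (0.488% of all). Counted from the median of all regions instead of from 0, 19 were at least 2-fold higher and 10 lower at high glucose (65.5% higher, against 96.8% before), and 7 and 7 at low glucose (50% higher, against 100% before). Both shares of regions at least 2-fold higher lay below those of the whole table.

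Regions were also counted by their intervals. The interval lay above 0 at 50 regions at high glucose (54.9%, against 55.2% of all regions) and at 49 at low glucose (53.8%, against 56.2%). It lay below 0 at 2 regions at high glucose, FBXL16 and RNF141 (2.07% of all), and at 0 at low glucose (0.713% of all). At both glucose levels, 31 regions had an interval above 0 (41.1% of all) and 21 were at least 2-fold higher (31.4% of all). A further 9 were at least 2-fold higher at high glucose alone (9.89%, against 10.3% of all), 18 at low glucose alone (19.8%, against 15.5%) and 43 at neither (47.3%, against 42.9%). Over the 91 regions the 2 log2 ratios had a Pearson r of 0.42 and a Spearman rho of 0.45, against 0.56 and 0.61 over all regions; regions within a library share its depth.

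**Figure D1:**
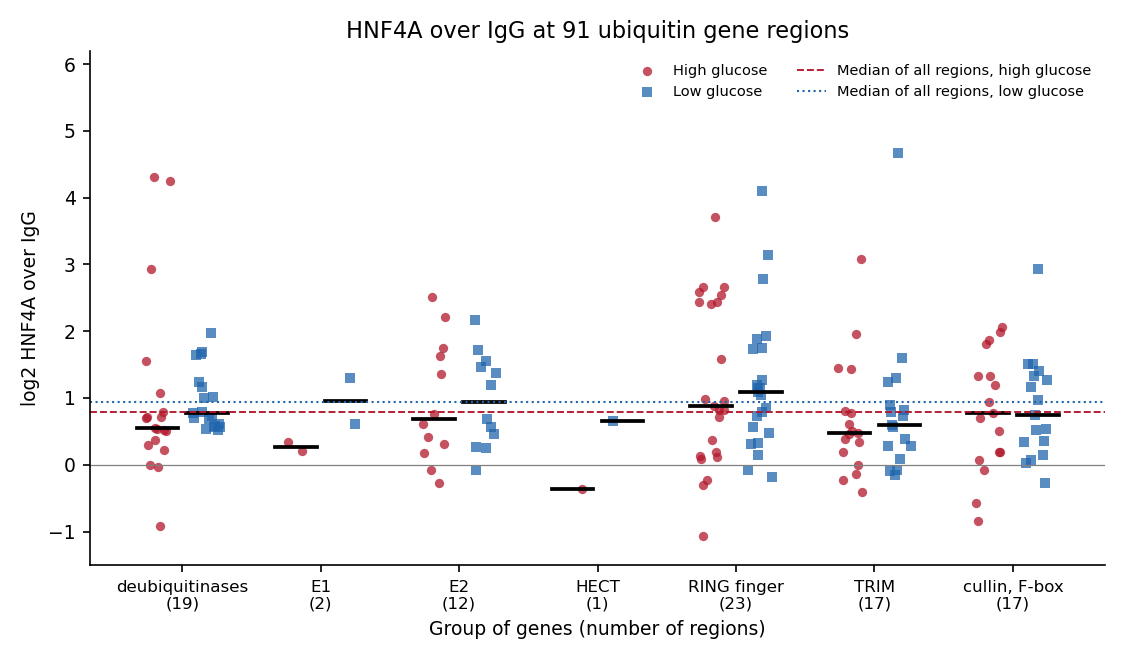
Log2 HNF4A over IgG (vertical axis) of the 91 regions by role of the closest gene, at high and at low glucose; each point is 1 region a bar marks the median of its group, and the dashed and dotted lines mark the medians of all regions (0.79 at high and 0.94 at low glucose). The RING finger genes have the highest median of the groups with more than 2 regions at both glucose levels (0.88 at high and 1.097 at low), and the points far above the rest are USP38 and USP54 at high glucose and TRIM2 (2) and RNF126 at low glucose.

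At the start of the relay, both E1 names had few reads over IgG at high glucose. UBA2, a subunit of the E1 for the ubiquitin-like protein SUMO, had 51 HNF4A reads against 40 IgG reads at high glucose and 48 against 31 at low glucose. UBA6-AS1, named as antisense to the E1 gene UBA6, had 21 against 15 and 20 against 8. The HNF4A and IgG counts were thus close at UBA2, and only the low glucose ratio of UBA6-AS1, 1.30 (0.05 to 2.69), had an interval above 0.

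The E2 enzymes had 12 regions at 10 genes, with median log2 ratios of 0.69 at high glucose and 0.94 at low glucose. At least 2-fold higher were 5 regions at high glucose, 6 at low glucose and 4 at both. These were 41.7%, 50% and 33.3% of the group, against 41.6%, 46.8% and 31.4% of all regions. UBE2H, which is known for its part with the CTLH ligase, had 3 regions along 1 stretch of chromosome 7. They held 57 HNF4A reads against 9 IgG reads, 34 against 12, and 36 against 7 at high glucose, with log2 ratios of 2.52, 1.36 and 2.22. At low glucose they held 36 against 12, 28 against 10 and 23 against 14, with ratios of 1.56, 1.46 and 0.69. HNF4A was above IgG at all 3 regions in both conditions, although the third had a low glucose interval that included 0 (-0.33 to 1.76).

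UBE2E1, an E2 of the class with an N-terminal extension, was nearly equal in the 2 conditions. It had 63 HNF4A reads against 17 IgG reads at high glucose and 37 against 11 at low glucose, so that its ratios were 1.74 (0.95 to 2.61) and 1.72 (0.72 to 2.84). UBE2V2, a catalytically inactive partner that helps an active E2 build ubiquitin chains, had 65 against 19 and 50 against 19, with ratios of 1.63 and 1.37. UBE2R2, an E2 that works with cullin ligases, held the most HNF4A reads of the group, 225 against 120 IgG reads at high glucose and 175 against 75 at low glucose. Its IgG reads were also high, and its ratios were 0.76 and 1.20.

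UBE2A, UBE2W, UBE2Q1 and UBE2J2 had intervals that included 0, apart from UBE2Q1 and UBE2J2 at low glucose. UBE2A, an E2 for histone and PCNA ubiquitination, had 54 HNF4A reads against 59 IgG reads at high glucose (-0.27, -0.83 to 0.28) and 38 against 27 at low glucose. UBE2W, which attaches ubiquitin to the N-terminus of proteins, had 102 against 69 and 66 against 54. UBE2Q1 had 138 against 131 at high glucose and 126 against 84 at low glucose (0.56, 0.15 to 0.97). UBE2J2, an E2 of the endoplasmic reticulum membrane, had 26 against 19 at high glucose and 23 against 5 at low glucose (2.18, 0.75 to 3.93): its HNF4A counts were close, and its IgG counts were not.

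The RING finger genes formed the largest group, 23 regions at 17 genes. Their median log2 ratio was 0.88 at high and 1.097 at low glucose. In this group 9 regions were at least 2-fold higher at high glucose, 13 at low glucose and 6 at both. These were 39.1%, 56.5% and 26.1% of the group, against 41.6%, 46.8% and 31.4% of all regions. RNF121, a membrane ligase of the Golgi apparatus, gave unlike ratios at its 2 regions. Its second region held 56 HNF4A reads against 8 IgG reads at high glucose and 27 against 7 at low glucose, and its first held 59 against 29 and 46 against 25. The ratios were 2.66 and 1.92 at the second and 0.88 and 0.85 at the first. RNF114 also had a narrow region with few IgG reads, 29 against 2 at high glucose and 14 against 2 at low glucose, giving ratios of 3.71 (1.73 to 6.82) and 2.78 (0.66 to 5.96). The widths of these intervals come from the 2 IgG reads. Its wider region held 109 against 56 and 86 against 37, with ratios of 0.81 and 1.19.

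RNF213, a very large ligase whose variants are linked to moyamoya disease, had the more distinct signal at high glucose at both of its regions. The first, chr17:78227516-78230031, held 107 HNF4A reads against 49 IgG reads at high glucose and 54 against 56 at low glucose. The second, chr17:78264844-78265679, held 59 against 10 and 30 against 17. Ratios were 0.98 and -0.08 at the first region and 2.41 and 0.79 at the second, and the low glucose intervals of both included 0. RNF217-AS1, a non-coding RNA gene named for RNF217, held 58 against 9 at high glucose and 17 against 5 at low glucose, with ratios of 2.54 (1.52 to 3.74) and 1.74 (0.24 to 3.53).

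Other RING regions gave ratios that differed between the conditions. RNF126, a cytosolic ligase for mislocalised membrane proteins, held 39 HNF4A reads against 20 IgG reads at high glucose and 35 against 2 at low glucose, and its ratio was 0.82 (0.00 to 1.67) at high glucose and 4.10 (2.14 to 7.20) at low glucose. Its HNF4A reads barely differed between conditions, while IgG held 2 reads at low glucose. RNF223 (1) held 28 against 13 at high glucose and 27 against 3 at low glucose, and RNF223 (2) held 18 against 3 and 18 against 8. RNF141 held 18 against 34 at high glucose, the only region at least 2-fold lower with HNF4A (-1.06, -1.98 to -0.20), and 27 against 12 at low glucose (1.14, 0.11 to 2.26). RNF19A, the ligase dorfin, held 43 against 13 and 24 against 17 at its first region, and 95 against 81 and 98 against 45 at its second.

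RNF13, a membrane ligase of endosomes, held 40 HNF4A reads against 22 IgG reads at high glucose and 44 against 18 at low glucose. RNF34, a ligase with reported action on caspases, held 104 against 73 and 62 against 69, and its low glucose ratio of -0.18 (-0.70 to 0.34) was the lowest among the members with a level at or above the table's median. RNF138P1 is a pseudogene, so reads there may belong to its parent gene or to the copy; it held 17 against 18 and 21 against 10. The HECT group had 1 region, at UBE3B: 44 HNF4A reads against 51 IgG reads at high glucose and 37 against 23 at low glucose, with both intervals including 0.

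TRIM genes had 17 regions at 11 genes and lower medians, 0.47 at high and 0.60 at low glucose. At least 2-fold higher were 4 regions in each condition (23.5%) and 3 in both (17.6%). Over all regions the shares were 41.6% at high glucose, 46.8% at low glucose and 31.4% at both. TRIM2, a ligase known for regulating neurofilament in neurons, had 3 regions on chromosome 4, and its second, chr4:154056006-154056679, was highest over IgG of all members at low glucose. It held 56 HNF4A reads against 6 IgG reads at high glucose and 26 against 1 at low glucose, and its ratios were 3.08 (1.86 to 4.58) and 4.67 (2.07 to 10.03). A listed 1 may stand for 0 or 1 read. The low glucose interval takes it as 1 read and does not cover that doubt. The first region held 57 against 19 and 36 against 15, and the third 66 against 35 and 55 against 22; all 3 had intervals above 0 in both conditions.

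TRIM14, an adaptor of antiviral signalling, had the largest HNF4A difference between conditions of the genes with more than 1 region. Its first region, chr9:100880537-100881960, held 78 HNF4A reads against 51 IgG reads at high glucose and 27 against 16 at low glucose. Its second, chr9:100904408-100905337, held 82 against 27 at high glucose and 31 against 10 at low glucose. IgG moved with HNF4A, so the ratios over IgG hardly differed between conditions: 0.47 and 0.73 at the first region, and 1.46 and 1.61 at the second.

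TRIM24, a transcriptional coregulator, was the other TRIM region at least 2-fold higher at high glucose, with 30 HNF4A reads against 7 IgG reads (1.95, 0.74 to 3.38), and held 16 against 12 at low glucose (0.39, -0.78 to 1.60). The remaining TRIM regions had log2 ratios under 1 in both conditions. TRIM56, a ligase of the innate immune response, held 53 HNF4A reads against 56 IgG reads, 91 against 58 and 265 against 183 at its 3 regions at high glucose, and 60 against 39, 62 against 65 and 156 against 104 at low glucose. The last of these was the widest member, 4723 bp, and held the most reads in the HNF4A and IgG libraries at high glucose; its ratio was 0.39 (0.11 to 0.67) at high glucose. TRIM55, a muscle RING finger protein, held 133 against 79 and 66 against 34 at high glucose, and 109 against 62 and 36 against 29 at low glucose. TRIM28, a corepressor of KRAB zinc finger proteins, held 36 against 43 and 37 against 30, with the lowest TRIM ratio at high glucose, -0.40 (-1.08 to 0.27). TRIM4 held 106 against 105 and 85 against 79, and TRIM44, which lacks a RING, held 44 against 40 and 24 against 25, so both were level with IgG. TRIM49B, the narrowest member at 387 bp, belongs to a cluster of near-identical copies, so its reads cannot be placed with certainty: it held 52 against 41 and 44 against 48.

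Cullins and F-box genes had 17 regions at 12 genes, with median log2 ratios of 0.78 at high and 0.75 at low glucose. In each condition 7 regions were at least 2-fold higher (41.2%, against 41.6% of all regions at high and 46.8% at low glucose). FBXW5, a receptor of cullin ligases, had 2 regions in one neighbourhood of chromosome 9. Its second, chr9:139838301-139839916, held 123 HNF4A reads against 28 IgG reads at high glucose and 78 against 27 at low glucose, ratios of 1.99 (1.39 to 2.64) and 1.504 (0.86 to 2.19). Its first, chr9:139828260-139829553, held 66 against 26 and 39 against 5, ratios of 1.20 (0.52 to 1.91) and 2.94 (1.59 to 4.64). All 4 intervals lay above 0, so FBXW5 stood above IgG at both regions in both conditions.

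FBXO32 encodes atrogin-1, the ligase receptor induced in muscle wasting, and had 3 regions. At high glucose they held 37 HNF4A reads against 8 IgG reads, 89 against 32 and 77 against 19, with ratios of 2.06, 1.33 and 1.87. At low glucose they held 16 against 15, 51 against 39 and 55 against 19, with ratios of 0.07, 0.36 and 1.51. All 3 intervals lay above 0 at high glucose, and at low glucose only that of the third did (0.73 to 2.34).

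Among the other F-box genes, FBXL20 had the highest FBXL ratio at high glucose, with 31 HNF4A reads against 8 IgG reads (1.81, 0.65 to 3.14), and 32 against 14 at low glucose. FBXL16 had the lowest, 21 against 34 at high glucose (-0.84, -1.70 to -0.01), and held 22 against 9 at low glucose. FBXL13 held 51 against 24 and 151 against 119 at its 2 regions at high glucose, and 28 against 27 and 108 against 74 at low glucose. FBXO46 held 82 against 52 and 26 against 35 at high glucose, and 74 against 29 and 16 against 19 at low glucose. FBXW2 was close to IgG, with 42 against 36 and 31 against 21, as was FBXO31, a receptor for cyclin D1, with 44 against 35 and 41 against 24. FBXO17 held 91 against 48 at high glucose and 60 against 53 at low glucose.

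The cullin scaffolds had 1 region each. CUL3, which builds ligases with BTB proteins such as KEAP1, held 22 HNF4A reads against 21 IgG reads at high glucose and 27 against 10 at low glucose, ratios of -0.08 and 1.41. CUL5, which works with SOCS-box proteins, held 52 against 29 and 40 against 31, ratios of 0.70 and 0.34.

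Deubiquitinases had 19 regions at 16 genes. Their medians were 0.55 at high and 0.77 at low glucose, and 5 regions were at least 2-fold higher at high glucose, 8 at low glucose and 4 at both. These were 26.3%, 42.1% and 21.1% of the group, against 41.6%, 46.8% and 31.4% of all regions. HNF4A was above IgG at 16 of the 19 at high glucose (84.2%, against 84.2% of all regions). At low glucose it was above IgG at 19 (100%, against 91.5% of all), with a range of 0.52 to 1.97. USP38, a deubiquitinase with reported roles in interferon signalling and histone deubiquitination, had the highest ratio of the 91 regions at high glucose. Its region, chr4:144146000-144147037, held 110 HNF4A reads against 5 IgG reads at high glucose and 43 against 21 at low glucose. The log2 ratio was 4.31 (3.05 to 5.96) at high glucose, rank 26 among all 5326 regions, and 1.01 (0.22 to 1.83) at low glucose.

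USP7, which stabilises MDM2 and p53, held 42 HNF4A reads against 5 IgG reads at high glucose and 24 against 6 at low glucose, ratios of 2.92 (1.59 to 4.62) and 1.97 (0.65 to 3.55). USP54 held 21 against a listed 1 read at high glucose and 12 against 5 at low glucose, and its ratio of 4.25 had an interval of 1.61 to 9.62. OTUD3, an ovarian tumour domain enzyme, had the highest OTUD ratios, with 26 against 8 and 16 against 5 (1.55 and 1.65). OTUD7B, a regulator of NF-kappaB signalling, held 181 against 115 and 91 against 39 at its 2 regions at high glucose, and 163 against 108 and 58 against 33 at low glucose, and all 4 intervals lay above 0. USP7, OTUD3 and OTUD7B thus had intervals above 0 in both conditions. The low glucose ratio of USP54 was 1.24, with an interval that included 0 (-0.37 to 3.09).

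USP9X, a deubiquitinase of many substrates on the X chromosome, held 29 HNF4A reads against 16 IgG reads and 84 against 44 at high glucose, and 23 against 7 and 54 against 36 at low glucose. USP36, a nucleolar enzyme, held 124 against 91 and 57 against 36 at high glucose, and 100 against 68 and 44 against 29 at low glucose. USP22, of the SAGA complex, held 97 against 60 and 57 against 39. At low glucose the intervals of USP9X (2), USP36 (2) and USP22 included 0. USP4 held 40 against 37 at high glucose and 45 against 22 at low glucose, and OTUD6B held 54 against 49 and 47 against 27. USP48 held 45 against 35 and 42 against 27. USP47, which acts on DNA polymerase beta, had the lowest USP ratio at high glucose, 14 against 24 (-0.92, -1.99 to 0.09), and held 22 against 13 at low glucose.

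**Figure D2:**
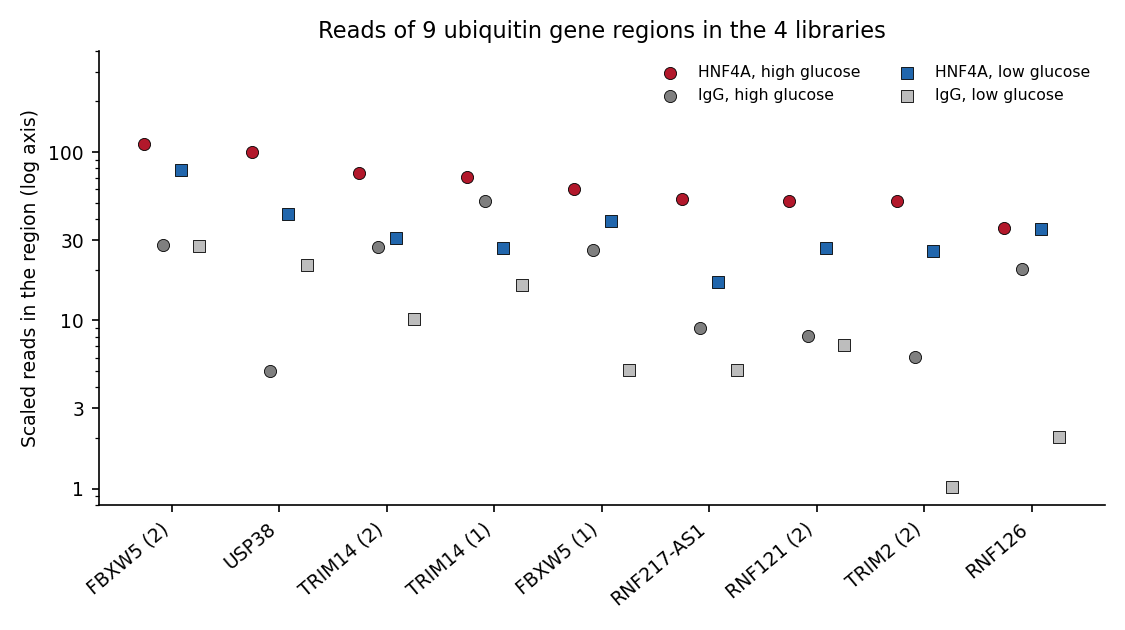
Scaled reads per region (log axis) in the 4 libraries, with HNF4A to the left of IgG at each glucose level. Shown are members with an authors' p-value under 0.05 in any of the 3 comparisons, apart from those not reported by name. They were thus picked for large ratios, and each point is 1 region in 1 library. USP38 has 110 HNF4A reads at high glucose against 5 IgG reads before scaling, and RNF126 has similar HNF4A reads in both conditions with 20 and 2 IgG reads at high and low glucose.

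The authors' deposited table for each comparison gives a p-value and a false discovery rate per region. In the authors' deposited table for high glucose, 5 members had p under 0.05 with HNF4A higher (4.96% of all regions), among them USP38 (p = 0.000245), TRIM2 (2) (p = 0.0290), FBXW5 (2) (p = 0.0292) and RNF121 (2) (p = 0.0483). At low glucose, 3 members did so in the authors' deposited table (3.04% of all): RNF126 (p = 0.0154), TRIM2 (2) (p = 0.0236) and FBXW5 (1) (p = 0.0382). TRIM2 (2) was the member in both lists. The lowest false discovery rate of a member was 0.435 at high glucose and 0.820 at low glucose in the authors' deposited table, so 0 members were below 0.05 there.

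HNF4A reads themselves were higher at high than at low glucose at 71 of the 91 regions (78.0%, against 81.8% of all), with a median log2 ratio of 0.35, against 0.36 over all regions. At least 2-fold higher were 5 (6.78% of all regions): RNF217-AS1, TRIM14 (1), TRIM14 (2), USP38 and FBXO32 (1). No member was at least 2-fold lower (0.713% of all). Counted from the median of all regions, 2 were at least 2-fold higher and 2 lower (50% higher, against 100% before). The interval lay above 0 at 25 members (25.8% of all) and below 0 at 0 (0.826% of all). As a set, then, the ubiquitin genes moved between conditions by about as much as the whole table.

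RNF217-AS1 had the largest HNF4A ratio between conditions: 58 reads were counted at high and 17 at low glucose, which gives a log2 of 1.63 (0.83 to 2.51). TRIM14 followed with 1.39 (0.75 to 2.08) and 1.27 (0.66 to 1.91) at its 2 regions, USP38 with 1.22 (0.70 to 1.76) and FBXO32 (1) with 1.07 (0.19 to 2.02). In the authors' deposited table of high over low glucose, RNF217-AS1 (p = 0.00574), TRIM14 (1) (p = 0.0167), USP38 (p = 0.0221) and TRIM14 (2) (p = 0.0260) had p under 0.05 with HNF4A higher at high glucose (4.39% of all regions), and the lowest false discovery rate of a member there was 0.914. Next among members with a level at or above the table's median were RNF213 (1) and (2), at 0.85 and 0.84, and TRIM55 (2), at 0.74. Lowest among members at that level were TRIM56 (1), USP4 and RNF13, with log2 ratios of -0.31, -0.31 and -0.27, each with an interval that included 0.

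IgG reads also differed between the conditions. This ratio links 2 tables that the authors scaled separately, through the HNF4A libraries that both share with the third table. IgG was higher at high glucose at 65 of the 91 regions (71.4%, against 77.9% of all), with a median log2 ratio of 0.43 (0.51 over all regions). It was at least 2-fold higher at 16 (19.4% of all) and at least 2-fold lower at 6 (3.38% of all). Its interval lay above 0 at 25 (26.2% of all) and below 0 at 2 (1.93% of all), USP38 and RNF130. HNF4A and IgG were both higher at high glucose at 49 regions (53.8%, against 64.6% of all), HNF4A alone at 22 (24.2%, against 17.2%), IgG alone at 16 (17.6%, against 13.3%) and neither at 4 (4.396%, against 4.94%).

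TRIM14 shows IgG and HNF4A differing together: the IgG log2 ratio of high over low glucose was 1.66 (0.82 to 2.57) at its first region and 1.42 (0.33 to 2.63) at its second, each above the HNF4A value of the same region with overlapping intervals. USP38 shows them apart, with HNF4A at 1.22 and IgG at -2.09 (-3.85 to -0.64). RNF126 shows IgG alone, with HNF4A at 0.02 and IgG at 3.31 (1.26 to 6.45). FBXL16 and UBE2J2 were like RNF126, with HNF4A at -0.20 and 0.04 and IgG at 1.90 (0.81 to 3.15) and 1.91 (0.44 to 3.69). Over the 91 regions the HNF4A and IgG ratios had a Pearson r of -0.13 and a Spearman rho of -0.21, within regions that share libraries. Over all regions these were 0.0095 and 0.020.

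**Figure D3:**
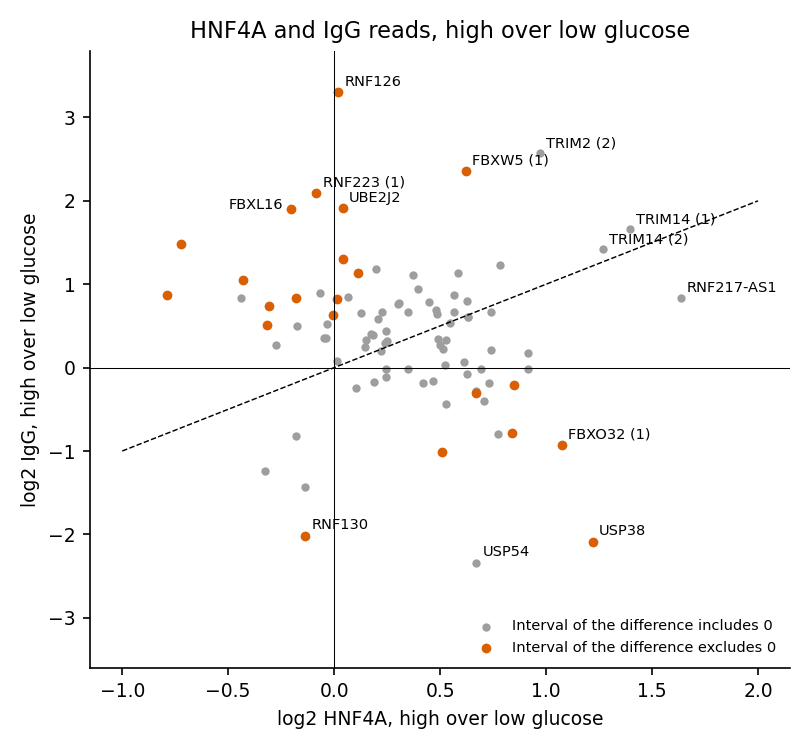
Log2 ratio of high over low glucose for HNF4A reads (horizontal axis) and for IgG reads (vertical axis) at the 91 regions, 1 point each, with the dashed line where both changed alike; orange points have an interval of the difference of ratios that excludes 0. RNF126 lies at 0.02 and 3.31, USP38 at 1.22 and -2.09, and the TRIM14 regions lie near the line.

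The change of the HNF4A over IgG ratio from one condition to the other was the high glucose ratio minus the low glucose ratio, with a normal interval from the reads. Its median was -0.15 over the 91 regions and -0.15 over all regions. The interval lay above 0 at 7 members (5.24% of all regions) and below 0 at 15 (9.05% of all). For these 22 regions the IgG ratio of high over low glucose had the sign opposite to the difference in 22 cases (100%, against 96.2%), which its place in the difference makes likely, and it was larger in size than the HNF4A ratio in 18 (81.8%, against 75.03% of the regions of the whole table whose interval excluded 0). The HNF4A ratio of high over low glucose had an interval that excluded 0 at 6 of the 22 (27.3%, against 30.1%). That of IgG did so at 13 (59.1%, against 64.8%), and both did so at 2. The differences above 0 were led by USP38, 3.31 (1.81 to 4.80), FBXO32 (1), 1.996 (0.50 to 3.50), and RNF130, 1.88 (0.10 to 3.66). Those below 0 were led by RNF126, -3.29 (-5.48 to -1.09), RNF141, -2.21 (-3.49 to -0.93), and RNF223 (1), -2.18 (-4.15 to -0.22). The part of the IgG reads in these differences was not tested.

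**Figure D4:**
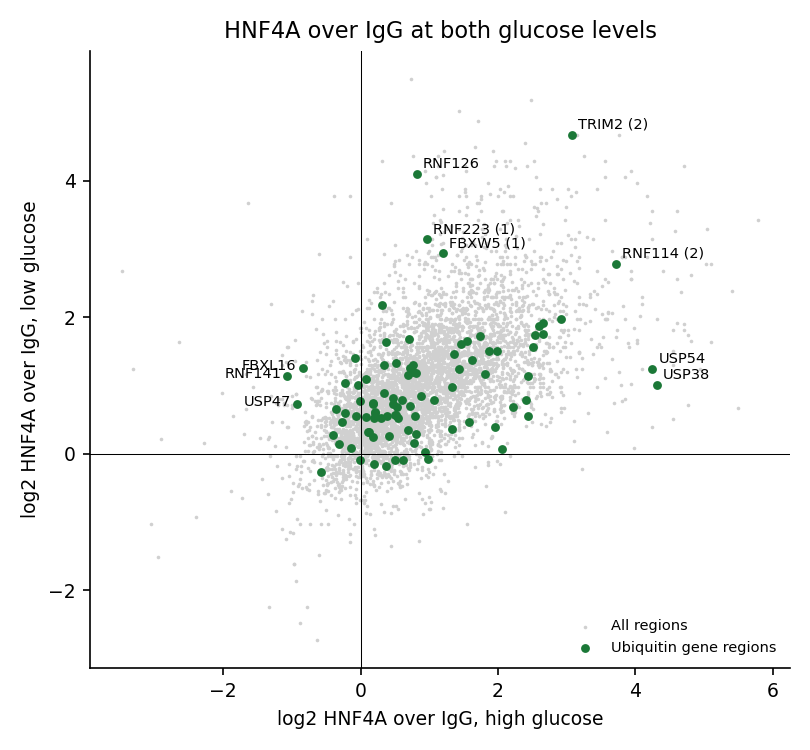
Log2 HNF4A over IgG at high glucose (horizontal axis) and at low glucose (vertical axis), 1 point per region, for the 91 regions (green) over all regions (grey). USP38 lies far right at 4.31 and 1.01, TRIM2 (2) at 3.08 and 4.67 is high on both axes, and RNF141 lies left of 0 at high glucose and above 0 at low glucose.

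Width went with the ratio. The 91 regions were split at widths of 865 and 1284 bp, which divide all regions into 3 classes of nearly equal size. The 32 narrow members had median log2 ratios of 1.46 at high and 1.16 at low glucose. Of them, 18 and 20 were at least 2-fold higher (56.25% and 62.5%, against 51.7% and 57.9% of all narrow regions). The 36 wide members had medians of 0.51 and 0.56. Of them, 4 and 7 were at least 2-fold higher (11.1% and 19.4%, against 23.9% and 29.5% of all wide regions). Median IgG reads were 12.5 at high glucose and 10 at low glucose in the narrow members, against 58.5 and 45 in the wide ones. The same order held over all regions, with medians of 1.04 and 1.24 in the narrow class and 0.54 and 0.69 in the wide class. Width had a Pearson r of -0.26 with the high glucose ratio and -0.30 with the low glucose ratio over the members.

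In 18 of the 69 genes there was more than 1 region, 14 genes with 2 and 4 with 3 (FBXO32, TRIM2, TRIM56 and UBE2H). Regions of 1 gene share a neighbourhood and are not independent. The narrowest region had a higher log2 ratio than the widest in 13 of these 18 genes at high glucose (72.2%, against 58.9% of all 661 such genes), in 12 at low glucose (66.7%, against 62.0%) and in 8 at both (44.4%, against 44.8%). RNF114, RNF121 and TRIM2 had it in both conditions, as did OTUD7B, RNF213, TRIM14 and USP36, and FBXO46, FBXW5, TRIM56, UBE2H and USP9X had the reverse at high glucose.

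**Figure D5:**
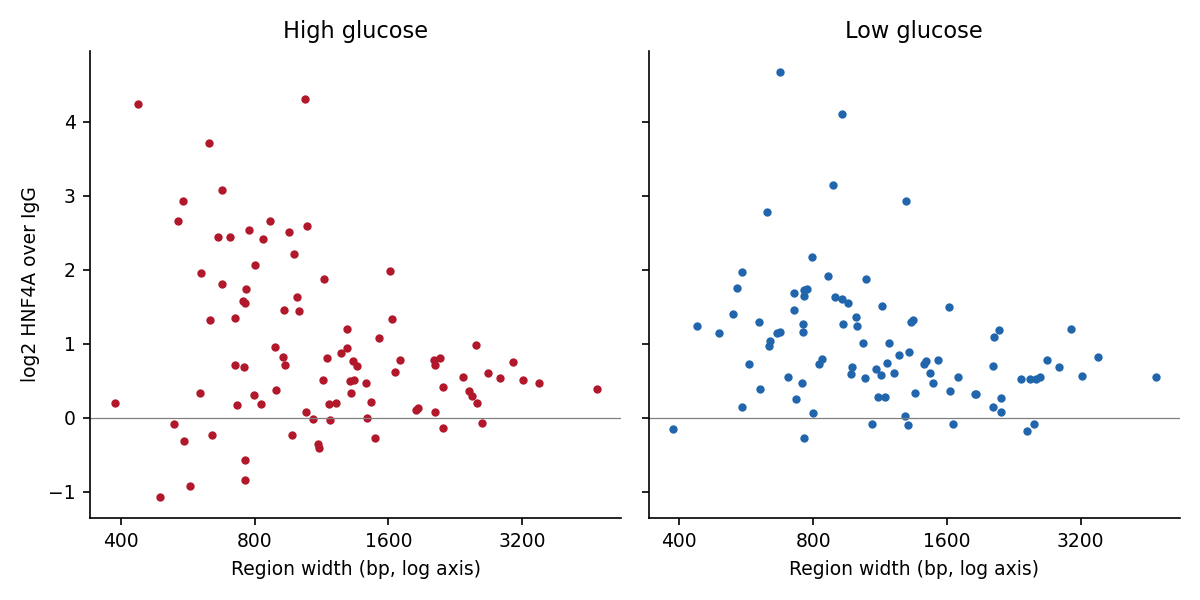
Log2 HNF4A over IgG against region width (log axis, bp) at high glucose (left) and low glucose (right), 1 point per region for the 91 regions. Ratios above 2 are in regions under 1284 bp wide, with FBXW5 (1) at low glucose as the exception, and the widest region, of 4723 bp at TRIM56, has 0.39 and 0.56 at high and low glucose.

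Members lay on most chromosomes, with 11 each on chromosomes 7 and 8 (12.1%, against 9.35% and 6.50% of all regions) and 9 on chromosome 1 (9.89%, against 10.6%). Chromosome 4 held 6 (6.59%, against 2.20%), of which 3 are TRIM2. Promoters were not read from these regions. In the RefSeq promoter table (GRCh38.p14) 48 of the 69 genes had an entry, 67 promoters in all, and 0 held, on either strand, the letters CAAAGTCCA or CAAAGTTCA or a longer direct repeat of the nuclear receptor kind. These were in 0.384%, 0.296% and 0.0285% of all 35116 promoters, so 0 of 67 is a description of these windows alone.

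Other genes of ubiquitin and related pathways were taken from 6 lists by function, with 412 genes, of which 116 had a region. Their 133 regions had median log2 ratios of 0.56 at high and 0.85 at low glucose. Of these, 44 and 55 were at least 2-fold higher (33.1% and 41.4%, against 41.6% and 46.8% of all regions). At least 2-fold lower were 3 and 0 (2.26% and 0%, against 1.05% and 0.488% of all). Ligases and adaptors outside the prefixes had 56 regions at 42 of 157 genes and medians of 1.02 and 1.06. Of these regions, 29 and 30 were at least 2-fold higher (51.8% and 53.6%, against 41.6% and 46.8% of all). They include LONRF3, 95 HNF4A reads against 22 IgG reads at high glucose (1.96), and SIAH1, a RING ligase, 72 against 18 (1.85). TRAF4, an adaptor of receptor signalling, held 105 against 23 at low glucose (2.16). SMURF1, a HECT ligase of BMP signalling, had 3 regions, which held 110 against 128 (-0.36), 141 against 41 (1.64) and 79 against 21 (1.77) at high glucose. At low glucose the same regions held 101 against 77 (0.37), 97 against 44 (1.11) and 38 against 33 (0.18).

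Partners of cullin ligases had 38 regions at 35 of 97 genes and medians of 0.39 at high and 0.78 at low glucose. Of these regions, 9 and 16 were at least 2-fold higher (23.7% and 42.1%, against 41.6% and 46.8% of all). COPS8, a subunit of the COP9 signalosome that removes NEDD8 from cullins, had a region with 107 HNF4A reads against 20 IgG reads at high glucose and 91 against 11 at low glucose, ratios of 2.27 and 3.02. WSB2, a SOCS-box receptor, held 139 against 33 and 92 against 41, ratios of 1.93 and 1.14. HNF4A was above IgG at both genes in both conditions.

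The remaining lists were small. Deubiquitinases outside the prefixes had 7 regions at 7 of 31 genes, with medians of 0.55 and 0.56. Of these regions, 2 and 2 were at least 2-fold higher (28.6% each, against 41.6% and 46.8% of all). UCHL5, of the proteasome cap, had 1.31 at high and 0.23 at low glucose, and JOSD2 had -0.28 and 0.49. Subunits of the anaphase-promoting complex had 4 regions at 4 of 16 genes, with medians of 0.61 and 0.56. SUMO genes had 7 at 7 of 19, with medians of 0.19 and 0.49, among them NSMCE2 (1.87 and 2.01) and SUMO2, with 68 HNF4A reads against 94 IgG reads at high glucose (-0.61). Proteasome, ubiquitin and receptor genes had 21 regions at 21 of 92 genes, with medians of 0.18 and 0.62. Of these regions, 2 and 4 were at least 2-fold higher (9.52% and 19.0%, against 41.6% and 46.8% of all). PSMD1, a cap subunit, had 1.31 at high glucose and PSMC3, an ATPase subunit, 1.25 at low glucose. All of these medians but those of the ligases lay below the whole-table medians of 0.79 and 0.94.

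At the HNF4A gene itself the region held 43 HNF4A reads against 25 IgG reads at high glucose (log2 ratio 0.64, -0.11 to 1.41) and 35 against 17 at low glucose (1.02, 0.14 to 1.94).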

How the data were processed

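HNF4A and IgG ChIP-seq libraries, 1 per group, were compared in 3 tables that the authors deposited. Per the submitters' processing notes, bcl2fastq, Bowtie 1.1.2, MACS, DiffBind and HOMER were used with hg19; their settings were not given in the sources used here. Per the file headers, the tables give log2 levels, a log2 fold change, a p-value and a false discovery rate for each region. The deposited log2 levels are of reads scaled by the authors to library size, and whole reads were recovered from them; relative library sizes were 1.099 and 1 for HNF4A and 0.993 and 0.982 for IgG at high and low glucose. Fragments were amplified for 15 PCR cycles before sequencing, per the labels' protocols.

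From those reads, log2 ratios with exact 95% Clopper-Pearson intervals were computed (python 3.11.15, numpy 2.4.6, pandas 2.3.3, scipy 1.17.1) and checked on simulated data. No count model was fitted, since each group has 1 library; the smallest listed value, 1 read, may be 0 or 1. The members and lists were chosen with earlier results of these data known. Named regions were, per comparison, the 10 highest and 10 lowest members at or above the median level of the table, members with the authors' p-value under 0.05, the highest and lowest per prefix, each gene with 2 or more regions, 2 highest and 2 lowest regions of each other list, by the same level rule (of which the text gives a part) and HNF4A; a few others were named after their values were seen. Alternatives were centring, no scaling, 1 added read, a filter on low reads (10 and 3), 1 region per gene, a 1.5-fold threshold and the authors' p-value. Values of a few members are not reported here by name; the counts and medians include them.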

Additional observations from a re-analysis of the deposited data

Results flagged for a closer look

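At 22 regions (24.2%, against 14.3% of all regions) the interval of the high minus low difference excluded 0. Each interval was taken alone, with no allowance for looking at 91 regions, so some of the 22 may exclude 0 by counting error. The interval is a normal one and is rough where IgG reads are few. At 5 of the 22, neither the HNF4A nor the IgG ratio of high over low glucose had an interval that excluded 0. At 18 of the 22, the IgG ratio of high over low glucose was larger in size than the HNF4A ratio. With 1 library per group, the high minus low difference compares libraries, and the conditions were not tested. Above 0 were USP38 at 3.31, FBXO32 (1) at 1.996, RNF130 at 1.88, RNF213 (2) at 1.62, UBE2H (3) at 1.53, RNF213 (1) at 1.06 and FBXO32 (2) at 0.97. Below 0 were UBE2Q1 at -0.63, FBXO46 (1) at -0.81, TRIM56 (1) at -0.82, RNF19A (2) at -1.01, UBE3B at -1.02, USP4 at -1.04, USP42 at -1.26, CUL3 at -1.49 and USP47 at -1.66. The lowest were FBXW5 (1) at -1.74, UBE2J2 at -1.87, FBXL16 at -2.10, RNF223 (1) at -2.18, RNF141 at -2.21 and RNF126 at -3.29.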

How the results depend on the processing

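No paired analysis was possible because there is 1 library per group, and no replicate was there to leave out. Counting errors limit regions with few IgG reads most, and closeness of a gene limits what a region says of it.

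Of regions at least 2-fold higher over IgG at high glucose, 30 became 19 after centring (subtracting the median of the whole table), 15 with 1 region per gene (69 regions), 48 at 1.5-fold and 5 by the authors' p-value. The 1 lower region became 10 after centring, 0 without scaling, 0 with IgG of both conditions summed (chosen after the data were seen), 3 at 1.5-fold and 0 by the authors' p-value. At low glucose, 39 higher became 7 after centring and 3 by the authors' p-value, and 0 lower became 7 after centring. For HNF4A at high over low glucose, 5 higher became 2 after centring, 8 without scaling, 3 with 1 region per gene and 26 at 1.5-fold, and 0 lower became 2 after centring and 2 at 1.5-fold. The other alternatives kept these counts within 1.5 times. The median log2 ratio at high glucose was 0.69 and became 0.84 without scaling. Without scaling, the median of all regions moved to 0.94 at high glucose, against 0.79, and to 0.49, against 0.36, for HNF4A at high over low glucose.

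Ratios whose interval included 0 were left out of the next count, though some of them also fell below 0 after centring. Among single log2 ratios over IgG whose interval lay above 0, centring turned 27 below 0, by its own construction. At high glucose these included CUL5 (-0.094), FBXO17 (-0.013), OTUD7B (1) (-0.28), TRIM2 (3) (-0.021), TRIM47 (-0.32), TRIM55 (1) (-0.18), TRIM56 (2) (-0.29), TRIM56 (3) (-0.40), UBE2R2 (-0.029), USP22 (-0.24), USP3 (-0.25), USP37 (-0.075) and USP9X (2) (-0.0033). At low glucose they were FBXL13 (2) (-0.42), OTUD6B (-0.17), OTUD7B (1) (-0.37), OTUD7B (2) (-0.15), RNF121 (1) (-0.085), TRIM37 (-0.047), TRIM47 (-0.12), TRIM55 (1) (-0.15), TRIM56 (3) (-0.38), UBE2Q1 (-0.38), USP3 (-0.25), USP36 (1) (-0.41) and USP37 (-0.23).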
